A study of Mus musculus with 8 samples.

Results

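Notch1, Notch2 and Notch3 (receptors), Dll1, Dll3, Jag1 and Jag2 (ligands) and Hes1, Hes5 and Hey1 (target genes) were followed in RNA-seq of brainstem (BS). They were chosen by gene symbol for their place in the Notch pathway, although earlier results of these data were known. All 10 were found among the 24081 genes of the table. Notch receptors are cut at the membrane when a ligand on a neighboring cell pulls on them, first by an ADAM protease and then by gamma-secretase. The freed intracellular domain binds RBPJ in the nucleus and turns on Hes and Hey genes, whose products are basic helix-loop-helix repressors. In the developing CNS this pathway keeps neural and glial progenitors undifferentiated, and it acts on oligodendrocyte progenitor cells (OPCs) and on blood vessels as well.

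The study asked what human PDGFRA does in Olig2-progenitors, the cells that give rise to motor neurons and to OPCs. KI mice (n = 4) carried Nestin tv-a, p53 fl/fl and Olig2-Tv-a/Cre together with hPDGFRA fl/+, a human cDNA behind a floxed stop and the CAG promoter in the Rosa26 locus. Control mice (n = 4) carried Nestin Tv-a, p53 fl/fl and Olig2-Tv-a/Cre without it. Tv-a is the receptor of RCAS viral vectors, with which these mice were not treated. By genotype, both groups were to lose p53 in the Olig2 lineage, with Cre expressed from Olig2 alone. Cells of the BS that did not descend from Olig2-progenitors would then carry neither change. Recombination by cell type was not measured in these data. All mice were untreated C57BL/6 animals labelled P19 (19 days after birth), while the methods give P18/P19. The labels give each library as a separate sample of whole BS and do not say whether tissue was pooled, and the p-values measure the spread between these 8 libraries.

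Values are normalized counts, that is, reads per gene divided by a size factor of the library. Undoing that division gave 24816146 to 27716846 reads per control library and 21492789 to 24458589 per KI library. Pdgfra was measured at 2565 to 3087 normalized counts in the control libraries and at 11437, 9706, 8939 and 3269 in KI replicates 1 to 4. Gt(ROSA)26Sor, the transcript of the targeted locus, stood at 82.9 to 93.9 in the controls and at 603, 605, 573 and 328 in the KI libraries. Reads were aligned to the mouse genome, so the Pdgfra count does not tell the mouse gene from the human cDNA. By Gt(ROSA)26Sor, KI replicate 4 thus carried the label's mark but at a lower level than the other KI libraries. Its Pdgfra was only just above the controls. The calls that changed when KI replicate 4 was left out are given with their genes. Xist was high (4155 to 8943) in KI replicate 4 and in control replicates 2 and 3 but at most 43.9 elsewhere. KI replicate 4 was thus the only KI library with high Xist, and this cannot be told apart from its lower Pdgfra. Ttr, a choroid plexus gene, was low in control replicate 4 (44.9) and KI replicate 3 (237). All 8 hindbrain genes on the marker list had reads in every library, with a sum of 1188 to 2729 normalized counts, while 4 of 7 forebrain genes were at 0 in at least 1 library. The forebrain sum was 230 in control replicate 4 and 288 in KI replicate 3, against 51.1 to 71.5 in the other libraries. These libraries, low in Ttr, also had the lowest hindbrain sums (1188 and 1235). Whether the tissue taken differed between libraries was not tested.

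KI and control mice were compared with limma on log2(normalized count + 1) over the 15123 genes that averaged 10 or more normalized counts, and a gene is called higher or lower where its Benjamini-Hochberg adjusted p is under 0.05. Log2 fold changes are KI minus control on this scale, which understates the change of low genes. All 10 Notch genes passed the filter on low counts. Dll1, Dll3 and Hes5 were lower in KI mice, Hey1 was higher, and the 3 receptors, Jag1, Jag2 and Hes1 were not called. The 4 called genes are 40.0% of the 10, where 24.4% of all genes tested were called (12.0% higher and 12.4% lower). The median log2 fold change was -0.044 over the 10 genes and -0.0040 over all genes. Under the alternatives the share of all genes called was 24.0% with edgeR, 29.2% with DESeq2, 24.3% with TMM, 24.3% and 24.5% with pseudocounts of 0.1 and 10, 16.4% with no filter, 14.6% with Xist as a covariate, 12.2% without the Ttr-low libraries and 0.0% with a replicate block. Without control replicates 1 to 4 in turn it was 15.3%, 5.88%, 12.4% and 22.1%, and without KI replicates 1 to 4 it was 14.6%, 6.63%, 15.1% and 35.0%. In 7 of these 8 fits fewer genes were called than with all libraries. With calls this common across the transcriptome, nothing about the 10 genes as a group is read from the count. In whole tissue, fewer cells of a type and less RNA per cell cannot be told apart.

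**Figure D1:**
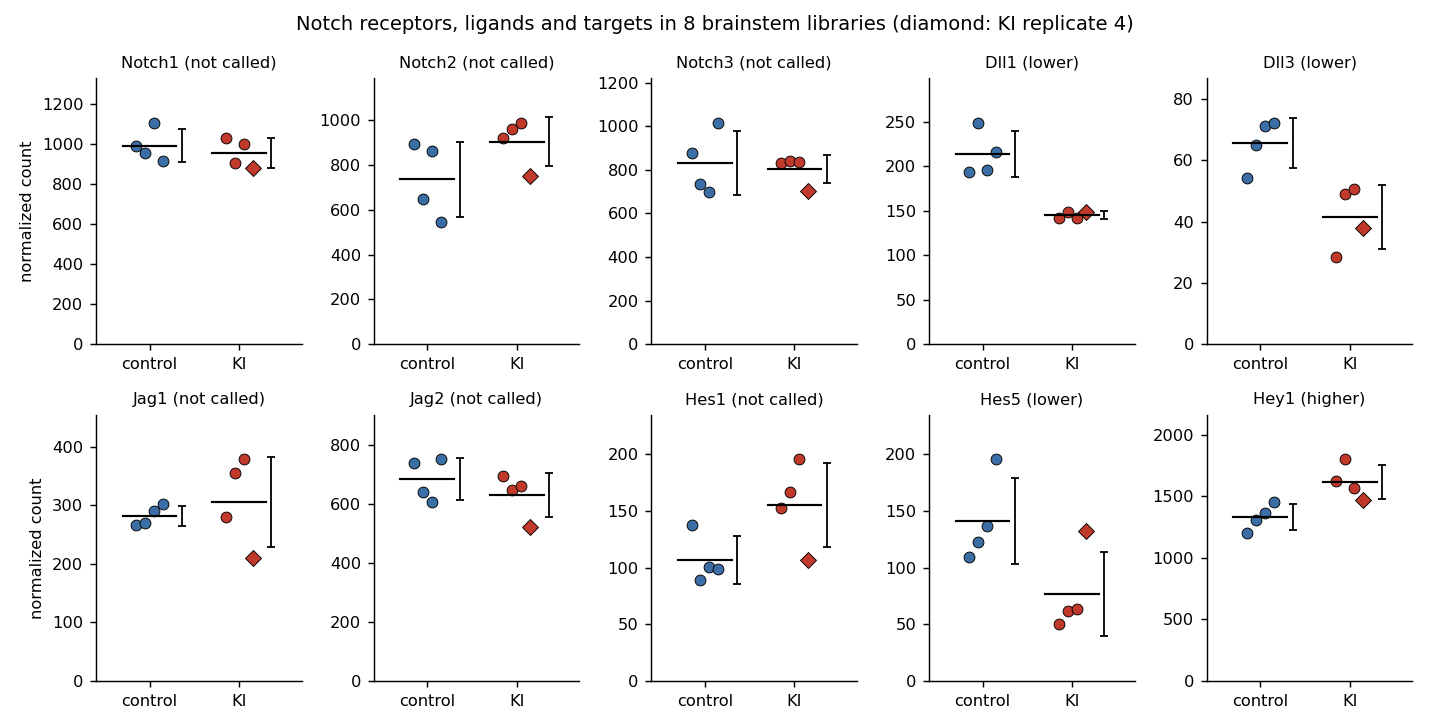
Normalized counts (y axis, from 0) of the 10 Notch genes in control (blue) and KI (red) libraries, 1 point per library, with the group mean (line) and SD (bar, n = 4); the diamond is KI replicate 4. Dll1, Dll3 and Hey1 do not overlap between the groups, while in Hes5 KI replicate 4 (132) lies among the controls.

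**Figure D2:**
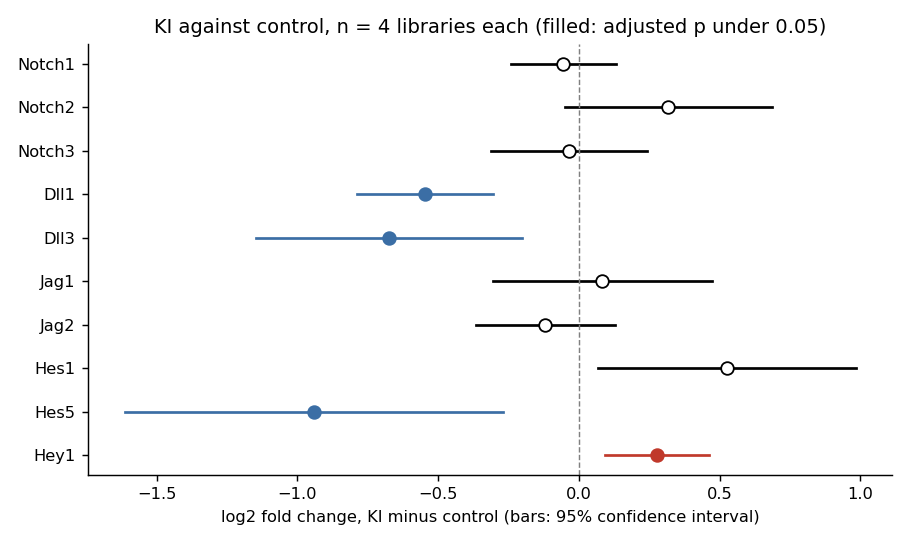
Log2 fold change of each Notch gene (x axis, KI minus control, on log2(normalized count + 1)) with its 95% confidence interval from limma; filled points have an adjusted p under 0.05. Hes5 is lowest at -0.94 with the widest interval, and Hey1 is the called gene above 0, at 0.28.

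The promoters of the 3 genes that fell are shown because Hes5 is a direct target of the receptors, through RBPJ, and Dll1 and Dll3 are ligand genes whose windows hold the E-box CAGCTG, a motif of basic helix-loop-helix factors. Each run is the 250 bases before a RefSeq start site in GRCm38.p6, written 5′ to 3′ on the gene's strand. Capitals mark TGGGAA, the core of the RBPJ motif, on either strand in Hes5 (chr4:154960673-154960922, plus strand), and CAGCTG in Dll1 (chr17:15376933-15377182, minus strand) and Dll3 (chr7:28301786-28302035, minus strand).
Hes5: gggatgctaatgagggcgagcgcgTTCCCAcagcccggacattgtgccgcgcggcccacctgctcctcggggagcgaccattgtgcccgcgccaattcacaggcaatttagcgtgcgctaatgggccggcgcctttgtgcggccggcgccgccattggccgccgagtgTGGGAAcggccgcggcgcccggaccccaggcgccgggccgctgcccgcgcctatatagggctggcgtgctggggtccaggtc
Dll1: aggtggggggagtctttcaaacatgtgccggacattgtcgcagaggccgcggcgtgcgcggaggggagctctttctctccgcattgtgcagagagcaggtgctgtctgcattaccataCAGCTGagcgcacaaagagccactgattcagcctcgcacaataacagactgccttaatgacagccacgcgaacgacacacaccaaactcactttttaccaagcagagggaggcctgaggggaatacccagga
Dll3: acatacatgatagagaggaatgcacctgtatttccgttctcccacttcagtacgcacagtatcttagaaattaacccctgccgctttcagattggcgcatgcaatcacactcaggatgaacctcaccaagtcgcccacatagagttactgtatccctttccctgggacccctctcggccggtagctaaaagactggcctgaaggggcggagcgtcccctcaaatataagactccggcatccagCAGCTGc
Promoters of 8 of the 10 Notch genes were matched in the RefSeq table, and those of Hes1 and Hey1 were not. In Hes5 the motif starts 226 and 82 bases before the start site, on opposite strands, and both copies extend to GTGGGAA. Among 32851 promoter windows of this length, searched on both strands, TGGGAA was found in 21.6% and at least 2 copies in 2.77%, while at least 2 copies of GTGGGAA were found in 0.161%. CAGCTG starts 132 bases before the Dll1 start site and 7 bases before that of Dll3, and it is also in the window of Jag1, 82 bases before the start. It is in 13.0% of all windows, and a second Dll1 window holds no copy of it. That second window belongs to the start site at 15375823, where the deposited location of Dll1 begins on the minus strand. The printed window belongs to the start site at 15376932, nearer the GENCODE start. None of these motifs is in the windows of Notch1, Notch2, Notch3 and Jag2. A match is a description of the sequence only.

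The receptors did not pass the test. Notch1 (chr2:26457903-26516663, minus strand), the receptor of most neural progenitors, had normalized counts of 989.5, 951.4, 1104.4 and 913.0 in control replicates 1 to 4 and of 1030.5, 903.7, 999.7 and 876.8 in KI replicates 1 to 4. The groups overlap almost fully, and the log2 fold change was -0.05 with a 95% confidence interval of -0.24 to 0.13 (adjusted p = 0.667, limma). Notch3 (chr17:32120820-32166852, minus strand), a receptor of the mural cells of vessels, stood at 874.5, 734.3, 695.8 and 1015.6 in the controls and at 832.5, 842.3, 835.3 and 704.7 in the KI libraries. KI replicates 1 to 3 lie close together in the middle of the controls and KI replicate 4 near their low end, with a log2 fold change of -0.03 (95% confidence interval -0.31 to 0.24, adjusted p = 0.863, limma). Changes of up to about these bounds are not excluded by 4 libraries a group.

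Notch2 (chr3:98013527-98150361, plus strand), a receptor of many progenitors and of glia, was the most variable receptor among the controls. It had normalized counts of 892.3, 648.7, 861.8 and 543.9 in control replicates 1 to 4 and of 921.1, 961.7, 989.3 and 749.4 in KI replicates 1 to 4. Of the KI libraries, replicates 1 to 3 lie above every control and replicate 4 below control replicates 1 and 3, so the groups overlap. The mean was 737 ± 168 (SD, n = 4) in the controls and 905 ± 108 in the KI mice, a log2 fold change of 0.32 with an interval of -0.05 to 0.69, which did not pass (adjusted p = 0.182, limma).

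The Delta-like ligands were lower in the KI mice. Dll1 (chr17:15367354-15376872, minus strand), a canonical ligand that activates receptors on neighboring cells, had normalized counts of 193.4, 249.1, 196.1 and 215.8 in control replicates 1 to 4 and of 141.9, 148.4, 141.6 and 149.2 in KI replicates 1 to 4. Every KI library lies below every control, and the KI libraries lie close together, KI replicate 4 included. Dll1 fell from 214 ± 25.7 to 145 ± 4.08 (SD, n = 4), giving a log2 fold change of -0.55 (SE 0.107, 95% confidence interval -0.79 to -0.31, adjusted p = 0.0122, limma). It remained called with each of the 8 libraries left out in turn (log2 fold change -0.59 to -0.47, adjusted p from 0.00702 to 0.0483), with edgeR and DESeq2 on the recovered reads, and was lost in 1 of 17 alternatives, the fit with the replicate number as a block (adjusted p = 0.0559). Of its exon bases, 20.5% are shared with A930024N18Rik on the other strand, where counting without strand leaves reads out.

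Dll3 (chr7:28293553-28302238, minus strand), a divergent Delta-like protein that resides inside cells and does not activate receptors on neighbors, was the least abundant of the 10 genes per kb of exon. It had normalized counts of 54.4, 64.9, 71.1 and 72.3 in the controls and of 28.6, 49.1, 50.7 and 37.9 in the KI libraries, from 61 to 78 recovered reads per control library and 29 to 49 per KI library. All KI libraries lie below all controls, but control replicate 1 and KI replicate 3 lie close to each other. Dll3 fell by 0.67 on the log2 scale, from 65.7 ± 8.19 to 41.5 ± 10.4 (SD, n = 4, adjusted p = 0.0449, limma, 95% confidence interval -1.15 to -0.20). The direction was the same in every fit, with 1 library left out at -0.78 to -0.51, but the call was kept only without KI replicate 3 (adjusted p = 0.0472). Without any other single library the adjusted p lay between 0.0549 and 0.108.

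Non-overlapping groups were found for 3 of the 10 genes, Dll1, Dll3 and Hey1, against 25.5% of all genes tested (12.8% lower and 12.7% higher), a share near the background. The Jagged ligands overlapped. Jag1 (chr2:137081456-137116644, minus strand), a ligand made by many cell types including vessels and OPCs, had normalized counts of 265.6, 269.8, 290.0 and 301.7 in control replicates 1 to 4 and of 279.8, 355.9, 378.4 and 210.0 in KI replicates 1 to 4. KI replicates 2 and 3 lie above the controls and KI replicate 4 below them, and the SD was 76.6 in the KI mice against 17.0 in the controls, with a log2 fold change of 0.08 (interval -0.31 to 0.47, adjusted p = 0.755, limma). Its sign was not stable, at -0.03 without KI replicate 3 and at 0.25 without KI replicate 4.

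Jag2 (chr12:112907819-112929776, minus strand), the other Jagged ligand, stood at 738.1, 639.3, 607.4 and 750.0 in the controls and at 693.6, 647.1, 658.5 and 522.2 in the KI libraries. KI replicates 1 to 3 are inside the control range and KI replicate 4 is below it, and the log2 fold change was -0.12 (interval -0.37 to 0.13, adjusted p = 0.456, limma). With log2 Xist as a covariate Jag2 was called lower (-0.25, adjusted p = 0.0445, limma), and it was called in no other alternative. The ratio of Dll1 to Jag1 counts, which is read only between libraries since the genes differ in length, was 0.676 to 0.923 in the controls and 0.507, 0.417, 0.374 and 0.710 in KI replicates 1 to 4. In KI replicates 1 to 3 it is below every control, and in KI replicate 4 it is among them; no test was made of it.

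The 3 target genes did not move together. Hes5 (chr4:154960923-154962371, plus strand), a repressor that marks Notch-responding neural progenitors and glia, had normalized counts of 109.6, 122.2, 136.8 and 195.3 in control replicates 1 to 4 and of 50.2, 61.4, 63.1 and 132.0 in KI replicates 1 to 4. KI replicates 1 to 3 lie below every control, while KI replicate 4 lies above control replicates 1 and 2, so the groups overlap. Hes5 fell by 0.94 on the log2 scale, from 141 ± 37.9 to 76.7 ± 37.3 (SD, n = 4; SE of the log2 fold change 0.299, 95% confidence interval -1.61 to -0.27, adjusted p = 0.0478, limma). Without KI replicate 4 the log2 fold change was -1.23 (adjusted p = 0.00255). Without any other single library the call was lost, at -1.05 to -0.77 with an adjusted p of 0.0618 to 0.124, and edgeR on the recovered reads gave 0.0677. Of the exon bases of Hes5, 31.8% are shared with Gm20421 on the other strand.

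Hes1 (chr16:30064384-30067796, plus strand), a closely related repressor that many signals besides Notch can induce, had normalized counts of 137.3, 89.3, 100.3 and 98.6 in the controls and of 152.7, 166.2, 195.4 and 106.7 in the KI libraries. KI replicates 1 to 3 lie above every control and KI replicate 4 below control replicate 1. The log2 fold change of 0.53 (95% confidence interval 0.07 to 0.98) did not pass over all genes (adjusted p = 0.0866, limma), although it did with DESeq2 (adjusted p = 0.0483) and without KI replicate 4 (log2 fold change 0.70, adjusted p = 0.0136, limma). The ratio of Hes1 to Hes5 reads, again read only between libraries, was 1.25, 0.731, 0.733 and 0.505 in the controls and 3.04, 2.71, 3.10 and 0.809 in KI replicates 1 to 4. In the first 3 KI libraries the ratio is above every control, and in KI replicate 4 it is among them. No test was made of this ratio.

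Hey1 (chr3:8663359-8667256, minus strand), a Hes-related repressor, was the most abundant of the 10 genes per kb of exon. It had normalized counts of 1205, 1304, 1364 and 1452 in control replicates 1 to 4 and of 1621, 1800, 1570 and 1471 in KI replicates 1 to 4. Each KI library lies above each control, KI replicate 4 only just. Hey1 rose from 1331 ± 104 to 1615 ± 138 (SD, n = 4), giving a log2 fold change of 0.28 (SE 0.0823, 95% confidence interval 0.09 to 0.46, adjusted p = 0.0379, limma). The call was kept without control replicate 4 (adjusted p = 0.0340) and without KI replicate 4 (adjusted p = 0.0152), and without any other single library the adjusted p was 0.0666 to 0.107 at a log2 fold change of 0.23 to 0.29.

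Divided by exon length, the levels in the controls ran from Hey1 at 408 normalized counts per kb through Hes5 (103), Notch3 (103), Jag2 (98.2), Notch1 (69.5), Notch2 (68.3), Hes1 (52.2), Dll1 (50.6) and Jag1 (48.4) to Dll3 at 23.0. The library ranges of neighbors in this order are separate for Hey1 and Hes5, for Jag2 and Notch1 and for Jag1 and Dll3, and overlap for all other neighbors. In the KI mice Hey1 was again first (495 per kb) and Dll3 last (14.6), with Hes5 seventh (56.2), below Hes1 (76.2), and Dll1 ninth (34.4). There the ranges are separate for Hey1 and Notch3, for Jag1 and Dll1 and for Dll1 and Dll3. Exon length is that of all GENCODE M21 exons merged, with bases shared with other genes kept. The deposited locations differ from it for some genes (Notch1 ends at 26503822 there and at 26516663 in GENCODE). The order and the separations therefore depend on this divisor.

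Many OPC and astrocyte markers differed between the groups, and among the KI libraries both sums lay nearest the controls in KI replicate 4. The marker counts stand against 24.4% of all genes called (12.0% higher and 12.4% lower). Of 11 OPC markers, 9 were called lower and none higher, and their summed normalized counts were 32825 to 36391 in the controls, 7499 to 10190 in KI replicates 1 to 3 and 24696 in KI replicate 4. Olig1, Gpr17, Sox10 and Olig2 had the highest control means in this sum (11464, 9804, 4221 and 2386). The paper lists Olig1, Olig2 and Sox10 under the oligodendrocyte lineage, and it also uses Olig2 and Sox10 as OPC markers. C1ql1 was not called, nor was Lhfpl3, at 1667 to 2265 in the controls and 1749 to 2020 in the KI libraries. The OPC sum is thus not read as a measure of OPCs alone. Hes5, like the OPC sum, stood nearest the controls in KI replicate 4. The myelin sum did too, at 1109447 to 1693531 in the controls, 464061 to 923900 in KI replicates 1 to 3 and 1385417 in KI replicate 4. There the myelin sum, like Hes5, lay inside the control range, while the OPC sum lay below every control. This likeness does not assign Hes5 to a cell type. Dll1 stood in KI replicate 4 at the level of the other KI libraries. Of 14 astrocyte markers 9 were called higher and none lower, with sums of 206995 to 255028, 398724 to 454331 and 287361. Hey1 and Hes1, like this sum, were lowest of the KI libraries in KI replicate 4. So were Notch1, Notch2, Notch3, Jag1 and Jag2, and this trait does not assign a gene to a cell type.

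Of 8 markers of progenitors and cycling cells 2 were lower, with sums of 2034 to 2368 in the controls, 1717 to 1868 in KI replicates 1 to 3 and 2179 in KI replicate 4. Pcna, Dcx and Nes, with the highest counts in this sum, were not called. The called genes were Mki67 and Top2a. Mki67 stood at 77.1 to 127 in the controls, 22.7 to 29.6 in KI replicates 1 to 3 and 90.7 in KI replicate 4. For Top2a these values were 71.3 to 119, 6.20 to 11.2 and 102. Vascular markers moved less: 2 of 10 endothelial markers were lower and none higher (8066 to 9139, 8708 to 9837 and 7353), and none of 10 mural markers were called (6186 to 7883, 5213 to 6961 and 6419). Jag1, Jag2 and Notch1 were lowest of all 8 libraries in KI replicate 4, as the endothelial sum was. None of the OPC, astrocyte, endothelial or mural markers was at 0 in any library. Of the other lists, 6 of 10 myelin genes and 3 of 8 meningeal fibroblast markers were lower, 3 of 7 blood markers were higher, 2 of 8 neuron markers were higher and 1 lower, and none of the 8 microglia, 8 choroid plexus or 8 ependymal markers were called. The part of these cell types in the results was not tested.

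The rest of the pathway was followed in 63 other genes listed by role, of which 59 passed the low-count filter (Hes2, Hes7, Neurog1 and Atoh1 did not). Of these, 12 were called, 3 higher and 9 lower, which is 20.3% against 24.4% of all genes, with a median log2 fold change of -0.099. The share of calls is near that of the background.

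**Figure D3:**
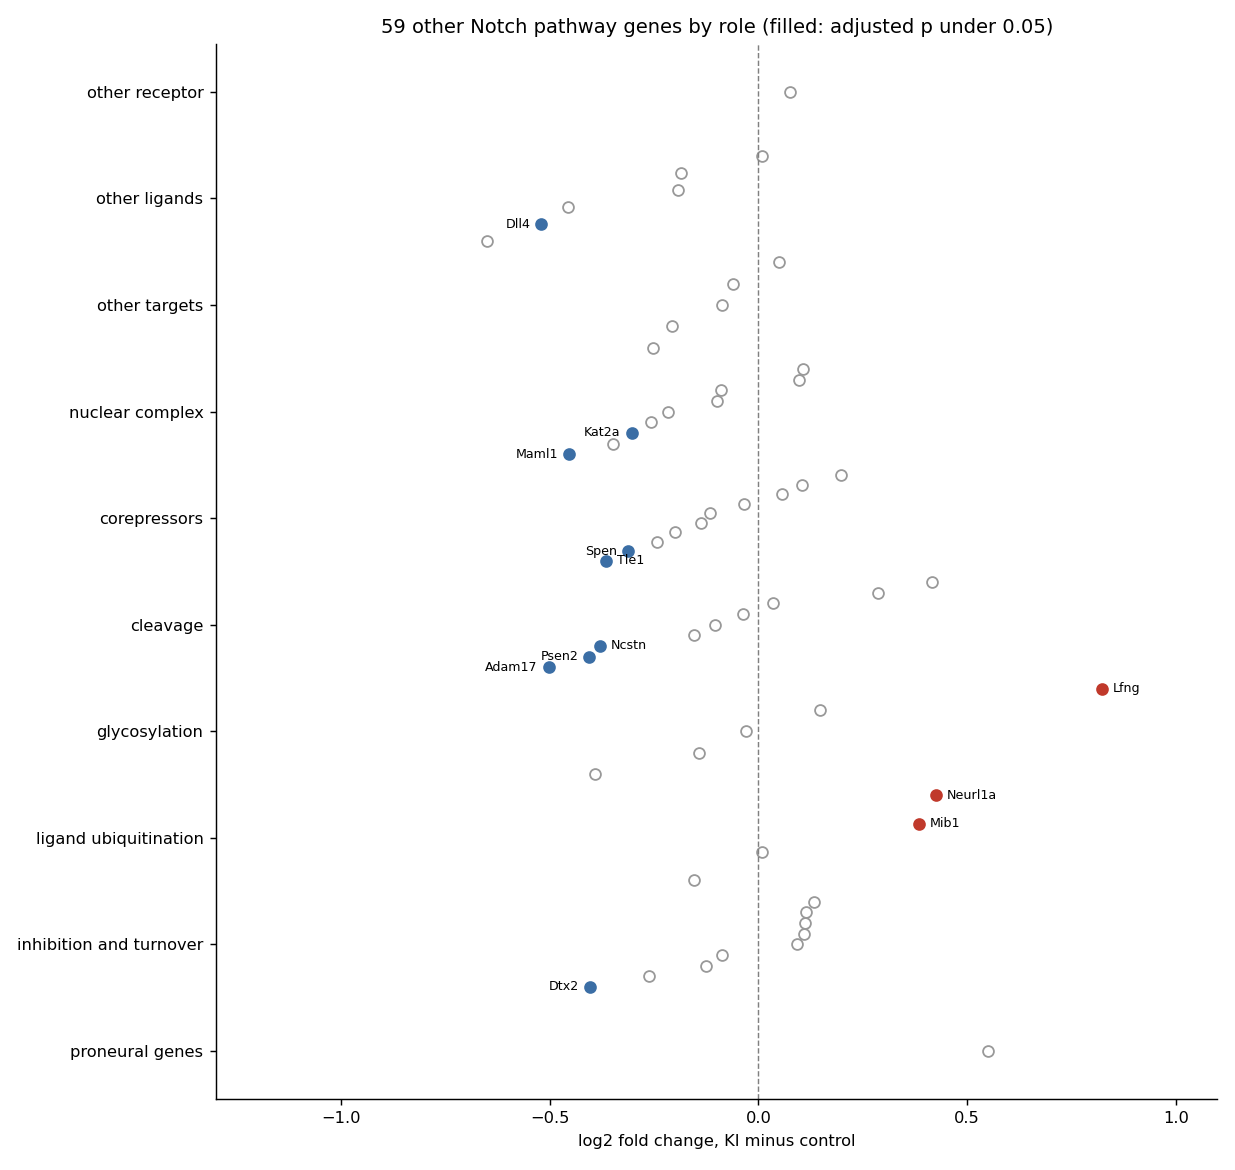
Log2 fold change (x axis, KI minus control) of 59 other Notch pathway genes, 1 point per gene, in rows by role; filled points have an adjusted p under 0.05 (blue lower, red higher) and are named. The 3 genes called higher act on glycosylation of receptors (Lfng, 0.82) or ubiquitination of ligands (Neurl1a, 0.42, and Mib1, 0.38), and the lowest called gene is Dll4 (-0.52).

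Among the other ligands 1 of 6 was called. Dll4, a Delta-like ligand of endothelial cells, had normalized counts of 132.8, 143.8, 115.8 and 126.9 in the controls and of 75.9, 79.2, 105.4 and 103.3 in the KI libraries. All KI libraries lie below all controls, with a log2 fold change of -0.52 (adjusted p = 0.0333, limma), and the call was kept only without KI replicate 3 or KI replicate 4 when single libraries were left out (adjusted p up to 0.101). Notch4, the one other receptor, was at 0.08 (adjusted p = 0.839), and none of the 5 other target genes tested were called, Heyl having the smallest p (-0.25, adjusted p = 0.269).

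Of the 9 genes of receptor cleavage, 3 were called with limma, all lower, where 24.4% of all genes were called and 12.4% were lower. Ncstn, the substrate-binding subunit of gamma-secretase, had normalized counts of 1629 to 1868 in the controls and 1193 to 1456 in the KI libraries. The groups do not overlap, and the log2 fold change was -0.38 (adjusted p = 0.0137, limma). It was called in 6 of the 8 fits without 1 library, and lost without control replicate 2 or KI replicate 2 (adjusted p up to 0.0522). Psen2, a catalytic subunit of gamma-secretase, was at -0.41 (adjusted p = 0.0460) and was not called with edgeR (adjusted p = 0.0505). Adam17, a protease that can make the first cut, was at -0.50 (adjusted p = 0.0332) with KI replicate 4 (977) above control replicate 4 (916), and it was called, of the 8 fits without 1 library, only without control replicate 4 or KI replicate 4 (-0.63 and adjusted p = 0.00244 without the latter). Aph1b, a further subunit of gamma-secretase, was at 0.41 and missed the threshold with limma (adjusted p = 0.0543), but was called higher with edgeR (0.43, adjusted p = 0.0469), with DESeq2 (0.43, adjusted p = 0.0181) and without KI replicate 4 (0.54, adjusted p = 0.00353). With edgeR the cleavage genes thus gave 2 calls lower and 1 higher.

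Among the 10 corepressors and the 9 genes of the nuclear complex 2 each were called, a smaller share than the 24.4% of all genes, so no direction is read for either group. Tle1, a corepressor that Hes proteins recruit, had normalized counts of 937.8, 879.0, 956.6 and 879.8 in the controls and of 682.7, 727.4, 632.7 and 802.2 in the KI libraries. Every KI library is below every control, KI replicate 4 being nearest them, with a log2 fold change of -0.36 (adjusted p = 0.0170, limma). Spen, which binds RBPJ, was lower as well (-0.31, adjusted p = 0.0369). In the nuclear complex the coactivator Maml1 (-0.45) and the histone acetyltransferase Kat2a (-0.30) were the called genes. Rbpj itself was at -0.26 and not called (adjusted p = 0.104), but it was called without KI replicate 4 (-0.34, adjusted p = 0.0183). Dner, Kat2b, Hdac1 and Itch were likewise called, all lower, only when that library was left out (adjusted p = 0.0328, 0.0178, 0.0165 and 0.00258), so that 18 of 59 pathway genes passed there, where 35.0% of all genes did.

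Of 5 genes that act on receptor sugars 1 was called, with a median log2 fold change of -0.03 over the 5, and of 4 genes of ligand ubiquitination 2 were called. These 3 calls were higher in KI, as were 12.0% of all genes, and no direction is read for these groups. Lfng, the Fringe glycosyltransferase that favors Delta over Jagged ligands, had normalized counts of 837.1, 632.7, 663.0 and 830.0 in the controls and of 1444.3, 1597.6, 1491.8 and 833.2 in the KI libraries. The first 3 KI libraries are far above the controls and KI replicate 4 is near their highest value. The log2 fold change was 0.82 (adjusted p = 0.0204, limma) and 1.04 without KI replicate 4 (adjusted p = 0.000414), and the call was lost without control replicate 2 or 3 or KI replicate 1 or 2 (adjusted p up to 0.0659). Mib1, a ubiquitin ligase needed for ligand endocytosis, rose by 0.38 on the log2 scale, from 3117 to 3779 in the controls to 4233 to 4827 in the KI libraries without overlap (adjusted p = 0.0140), and was called in 6 of 8 such fits (adjusted p up to 0.0510, without control replicate 2 and KI replicate 2 the call being lost). Neurl1a, a related ligase, was at 0.42 (adjusted p = 0.0442) with KI replicate 4 inside the control range and at 0.54 without that library (adjusted p = 0.00354). Dtx2, a Deltex family ligase and the only call among 9 genes of inhibition and turnover, was at -0.40 (adjusted p = 0.0328). Of the 8 fits without 1 library, Tle1 and Kat2a were called in 6, Maml1 and Psen2 in 3, and Spen, Neurl1a and Dtx2 in 2, and all 7 lost the call without control replicate 2 and without KI replicate 2 (adjusted p up to 0.120).

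Neurog2, a proneural gene that Hes proteins repress, was close to the filter, with a mean of 8.35 ± 5.59 normalized counts in the controls and 13.2 ± 8.17 in the KI mice (SD, n = 4), and was not called (log2 fold change 0.55, adjusted p = 0.502, limma).

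**Figure D4:**
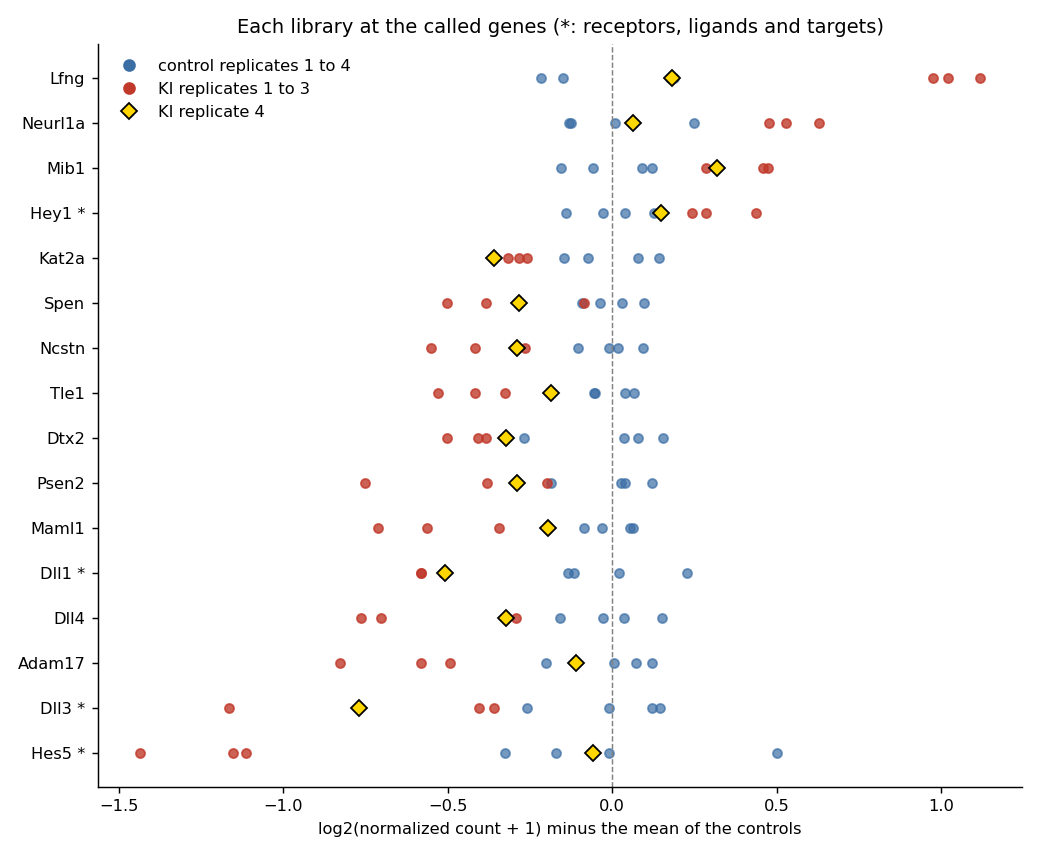
Position of each library (x axis, log2(normalized count + 1) minus the mean of the controls) for the 4 called Notch genes (starred) and the 12 other pathway genes called: blue, controls; red, KI replicates 1 to 3; yellow diamond, KI replicate 4. KI replicate 4 is nearer 0 than the mean of the other KI libraries for 3 of the 4 and for 11 of the 12 genes, and Dll3 and Kat2a are the exceptions.

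KI replicate 4, the KI library with the least Pdgfra and the only one with high Xist, lay inside the control range for 1 of the 4 called Notch genes (Hes5). It did so for 3 of the 12 other called genes (Adam17, Lfng and Neurl1a). For the remaining genes it lay beyond the controls, on the side of the other KI libraries.

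For each called gene, the 5 genes with the most similar levels across the 8 libraries were sought among the 13085 genes averaging 50 or more normalized counts, by the root mean square difference of centred log2 values. Those nearest Dll1 were Hcn4, Clstn3, Sh3rf1, Tmem132e and Cdyl2 (0.0619 to 0.0894, where Dll1 itself varied with a root mean square of 0.293). Those nearest Hey1 were Zfp612, Mtif2, Wdr45b, Mapk6 and 2610301B20Rik (0.0321 to 0.0496, with 0.172 for Hey1). Dll3 was matched less closely, by Mex3a, Kif9, Cd93, Itga8 and Zfp418 (0.132 to 0.208, with 0.423 for Dll3), and Hes5 by Cacng4, Tmem100, Foxm1, Prickle1 and Tppp (0.168 to 0.248, with 0.637 for Hes5). No other Notch pathway gene is among these 20 neighbors.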

How the data were processed

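BS RNA-seq of 4 KI and 4 control mice was read from a table of 24709 lines, of which 628 repeat a gene. Per the labels and methods, the authors aligned paired-end reads to mm10 with STAR 2.7 and counted them per Ensembl gene with HTSeq (no strand, union mode, minimum alignment quality 10, ambiguous and multiply mapped reads left out). The deposited signal is this count after division by DESeq2 size factors; multiplying back gave whole reads (tolerance 0.01) for 100% of it. The authors' columns of log2 fold changes, standard errors, Wald statistics, p-values and group means were not used. Alignments to the human genome were not used here.

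KI and control were compared with limma 3.58.1 in R 4.3.3 (trend, pseudocount 1, two-sided). EdgeR 4.0.16, DESeq2 1.42.0, TMM, other pseudocounts, no filter, a replicate block, log2 Xist as a covariate and omission of libraries were the alternatives; the steps were tested on simulated counts. The Notch genes, pathway and marker lists were chosen with earlier results of these data known. All 10 Notch genes were named, with every called gene of the 63 other pathway genes, the one with the smallest p where a role had no call, and the 5 nearest genes of each called Notch gene; Rbpj, Aph1b, Dner, Kat2b, Hdac1 and Itch were named after their values were seen. A few pathway genes are not reported here and were left out of the lists and counts. Gene coordinates are those of GENCODE M21 (GRCm38), and promoters are from RefSeq (GRCm38.p6).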

Additional observations from a re-analysis of the deposited data

Results flagged for a closer look

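In 2 of 50 sets of 4 libraries (25 genes in 2 groups), 1 library lay far from the other 3; chance alone gives about 1 in 20. Both concern KI replicate 4. Its Notch3 was 705 normalized counts, where the other KI libraries held 832 to 842. Its Hes5 was 132, where the others held 50.2 to 63.1.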

How the results depend on the processing

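Of the 10 Notch genes, 4 were called, and 3 with edgeR, 5 with DESeq2, 2 without the filter on low counts (Dll1 and Hey1), 2 with log2 Xist as a covariate (Dll1 and Jag2), 1 without the 2 libraries low in Ttr (Dll1) and 1 to 4 with 1 library left out. Of the other pathway genes 12 were called, 5 with the Xist covariate, 5 without the Ttr-low libraries and 0 to 18 with 1 library left out; at the 0, without control replicate 2 or KI replicate 2 in limma, 17 had an unadjusted p under 0.05. Over all genes 3685 were called, 2210 with the Xist covariate, 1843 without the Ttr-low libraries and 888 (without control replicate 2) to 5292 (without KI replicate 4) with 1 library left out. TMM and other pseudocounts changed none of the calls of named genes. Signs turned for Jag1 (-0.055) and Notch4 (-0.22) with the Xist covariate and for Notch3 (0.048) without the Ttr-low libraries; with 1 library left out Notch3 ran from -0.11 to 0.068, Jag1 from -0.030 to 0.25 and Notch4 from -0.065 to 0.32. The causes were not tested.

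Replicate numbers are shared by the groups, but deviations of same-numbered libraries correlated at 0.26, -0.12, -0.46 and -0.36. These correlations show no pairing by number but cannot exclude it, since other differences between libraries enter them too. The methods state that mutants were euthanized with littermate controls, and which libraries are littermates is not known here. With the replicate number as a block, limma called 0 Notch genes, 0 other pathway genes and 0 of all genes; 6, 16 and 5087 had an unadjusted p under 0.05. Dll3 rests on 29 to 78 reads a library, which limits its precision.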
